A study of Mus musculus with 2 samples.

Results

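Promoter-flanking sites are accessible regions that lie close to the start of a protein-coding transcript without lying on it. Here they were autosomal regions found as peaks in both replicates whose nearest edge was more than 500 bp and at most 2500 bp from the nearest protein-coding transcript start of GENCODE mouse release 21 on GRCm38, the assembly also called mm10. Among shared peaks the rule used position only and no measured height. Being called as a peak in both replicates itself depends on signal, so heights were not free of selection. It gave 5090 regions, 10.3% of the 49472 autosomal shared peaks, out of 50780 shared peaks on all chromosomes. Of these, 1752 lay upstream of their start and 3338 downstream of it, and none was equally far from starts on opposite sides. The other autosomal shared peaks were 16750 start-site peaks, at most 500 bp away, and 27632 distal peaks, over 2500 bp away. All ranges in brackets after a share or ratio are 95% exact binomial intervals and cover counting error only.

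The data were DNase-seq of hippocampal tissue from male mice aged 2 months of the hybrid strain B6CASTF1/J, whose label names a layer of hippocampus without saying which. DNase-seq uses the enzyme DNase I, which cuts DNA where nucleosomes do not cover it, and sequences the cut ends. There was 1 group of 2 samples, biological replicates 1 and 2, with no treatment, genotype contrast or other tissue. The labels give them separate biosamples and the same donor entry and do not say whether they came from separate animals, so the spread between them may be partly technical. With 1 group no contrast exists, no p-value is given, and regions of a library are not replicates. Values are therefore given for both replicates and set beside those of start-site peaks, distal peaks and all shared peaks.

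The DNA beside a start site holds several kinds of element. Upstream lie proximal enhancers and insulators bound by CTCF, a zinc finger protein that anchors chromatin loops, as well as starts of antisense transcripts. Downstream lie the first exon and first intron, which RNA polymerase II crosses soon after initiation and which hold alternative starts and intronic enhancers. CpG islands, stretches rich in the dinucleotide CpG that escape DNA methylation, often cover a start and reach some distance to both sides.

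The sequences of the 3 highest regions on each side are shown first, because they rank highest and because 3 of them are not unique sequence. Height is the signal value that the authors deposited for a peak, and regions were ranked by the mean over replicates of the rank of their height. Each line gives at most the middle 200 bases, read 5′ to 3′ on the plus strand of GRCm38. Capitals mark exact matches to any of the 15 motifs searched, and among these 6 only Mxi1 held one, the cyclic AMP response element TGACGTCA. The first 3 lie upstream of the nearest start of the gene named and the last 3 downstream of it.
Kpna1 (chr16:35981661-35981820): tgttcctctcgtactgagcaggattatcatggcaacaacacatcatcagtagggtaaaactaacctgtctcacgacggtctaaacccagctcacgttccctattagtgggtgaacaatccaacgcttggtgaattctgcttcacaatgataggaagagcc
Ski (chr4:155223301-155223360): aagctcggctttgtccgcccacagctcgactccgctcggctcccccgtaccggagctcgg
Arid1a (chr4:133754291-133754490): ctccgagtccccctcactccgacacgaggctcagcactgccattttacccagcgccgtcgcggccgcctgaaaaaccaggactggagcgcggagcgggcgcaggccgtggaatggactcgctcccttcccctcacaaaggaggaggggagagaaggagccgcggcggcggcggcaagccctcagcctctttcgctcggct
Il31ra (chr13:112578161-112578300): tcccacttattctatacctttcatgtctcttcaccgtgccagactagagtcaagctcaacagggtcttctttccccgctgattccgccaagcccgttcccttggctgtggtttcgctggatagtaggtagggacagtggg
Gm10718 (chr9:3024371-3024570): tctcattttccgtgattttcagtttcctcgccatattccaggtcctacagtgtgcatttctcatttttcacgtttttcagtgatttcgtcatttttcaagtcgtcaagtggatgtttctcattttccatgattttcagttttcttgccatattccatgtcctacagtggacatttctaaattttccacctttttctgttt
Mxi1 (chr19:53314241-53314420): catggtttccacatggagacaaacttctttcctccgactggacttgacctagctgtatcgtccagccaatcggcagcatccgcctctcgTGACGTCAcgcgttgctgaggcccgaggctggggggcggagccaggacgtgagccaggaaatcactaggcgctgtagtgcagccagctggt

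The region ranked first on the upstream side stood at heights of 37.0 in replicate 1 and 17.9 in replicate 2, 1495 bp from a start of Kpna1, which encodes an importin alpha adaptor for nuclear import. On the downstream side the first had 29.0 and 23.0, 2362 bp inside the interleukin 31 receptor gene Il31ra, which had no shared peak at any of its starts. Of the 20-base stretches of the Kpna1 region 80.1% recurred elsewhere in the C57BL/6J reference, and of those of the Il31ra region 83.5%. The Gm10718 region (heights 8.85 and 7.42) recurred over 100% of its stretches and was 100% repeat-masked. Heights above 14 in replicate 1 were otherwise found only near Gm10722 downstream (30.3 and 3.52) and Gm11168 upstream (15.1 and 0.990), both beside Gm10718 at the start of chromosome 9, where the replicates differed most. In the other 41 named regions at most 7.48% of stretches recurred. How reads of sequence present at many places were assigned is not stated, so the heights of these 3 regions cannot be read as those of single sites. By a longer measure, 49 of the 5090 flanking regions (0.963%) had middle 31 bases that recurred in the reference, close to the 584 of 49472 (1.18%) among all shared peaks.

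Among the highest regions of mostly unique sequence, the upstream one near Ski, a repressor of TGF-beta signalling, reached 12.6 in replicate 1 and 7.50 in replicate 2 at 709 bp. The region near Arid1a, a subunit of the SWI/SNF remodelling complex, reached 11.2 and 5.36 at 670 bp. Fbxw7, the substrate receptor of a ubiquitin ligase, had a region of 12.3 and 5.12 at 728 bp, against 0.513 and 0.538 at the start itself. These 3 regions were far higher than the peaks at their nearest starts, at 1.42 and 1.53 for Ski and 1.24 and 1.39 for Arid1a. The Arid1a region lay in the first intron, upstream of an inner start. A noncoding transcript of a coding gene started within 500 bp of it. The calcium-activated potassium channel gene Kcnn1 (9.47 and 5.63 at 2403 bp), the casein kinase gene Csnk1g2 (9.59 and 5.39 at 638 bp), Bahcc1 (11.8 and 5.13 at 1207 bp), C1qtnf6 (9.74 and 5.07 at 785 bp), the prothymosin alpha gene Ptma (10.6 and 4.61 at 1206 bp) and the mitochondrial topoisomerase gene Top1mt (9.23 and 4.88 at 561 bp) completed the 10 highest upstream. Of the 8 whose start had a shared peak, Kpna1 included, 7 exceeded that peak in both replicates. The exception was Bahcc1, whose start-site peak had 16.9 and 6.07. Because these regions were picked by height, such a count was favoured in advance. Over all flanking regions with a peak at their start the share was 11.7% (452 of 3859).

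Downstream, the region inside Mxi1, which encodes a MAX-binding antagonist of MYC, had 8.67 and 5.57 at 1175 bp. The clock repressor gene Nr1d1 (REV-ERB alpha) had one of 9.03 and 4.87 at 1133 bp, under the 11.7 and 6.96 of its start. Regions in Pnrc1 (9.41 and 4.16 at 530 bp), in the kinase gene Nuak1 (9.91 and 4.08 at 2297 bp), in the forkhead gene Foxn3 (8.42 and 4.48 at 832 bp) and in Epc1, which encodes a subunit of a histone acetyltransferase complex (7.26 and 5.54 at 736 bp), exceeded their start-site peaks in both replicates. Of the 7 with a start-site peak, Gm10718 included, 6 did so, again among regions picked by height. A noncoding transcript of a coding gene started within 500 bp of the Pnrc1 region. Likewise a noncoding RNA gene started within 500 bp of the Epc1 region. Gm15517 (8.39 and 4.53) and Angptl6, a gene for an angiopoietin-like protein (8.00 and 4.38), had no shared peak at any start.

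Flanking regions were denser than distal peaks and denser downstream of a start than upstream of it. Densities were counted over the sequence lying at the same distances on each side. A peak that overlapped several peaks of the other replicate gave several regions, each with its height, and these were counted separately. Neighbouring regions are therefore not always separate sites, and the part of this in densities, heights and ratios was not tested. The neighbouring Tet3 regions at 855 and 575 bp, for example, had the same height of 1.40 in replicate 2. Median widths were 160 bp upstream and 140 bp downstream, and the narrowest regions were 1 bp. Upstream there were 33.7 regions per Mb (52.0 Mb) and downstream 60.3 per Mb (55.4 Mb), a ratio of upstream to downstream of 0.559 (0.528 to 0.593). Distal sequence had 11.9 per Mb. Within the flanking window the difference in regions per Mb was largest from 500 to 750 bp, while the ratio of upstream to downstream was similar from 750 to 1000 bp, at 44.7 and 94.9 per Mb. From 500 to 750 bp there were 74.2 per Mb upstream and 156 downstream, from 1000 to 1250 bp 33.9 and 59.6, and from 2250 to 2500 bp 21.3 and 27.2. The upstream to downstream ratio stayed below 1 in all 11 alternatives, between 0.530 and 0.725, and was 0.725 when peaks had to overlap by 50% of both.

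**Figure D1:**
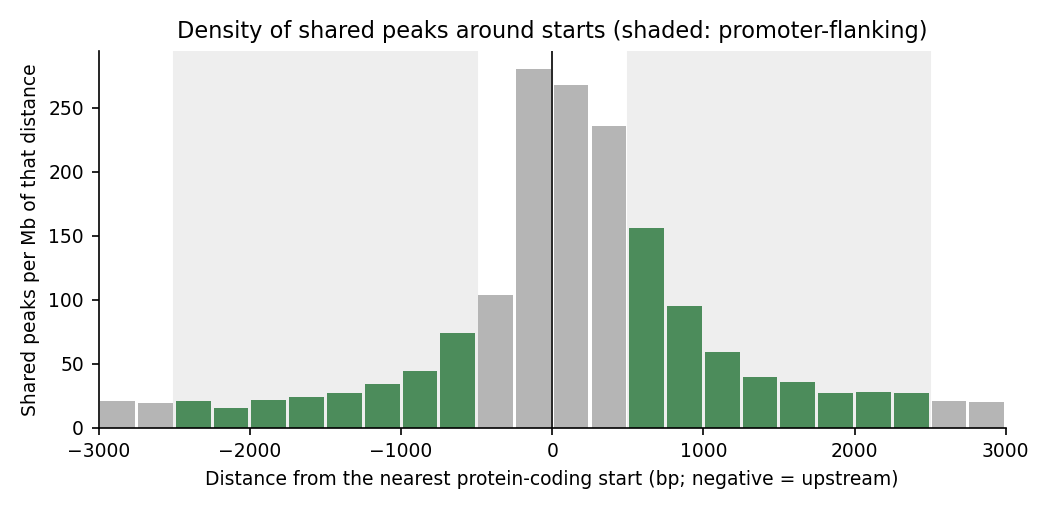
Number of autosomal shared peaks per Mb (vertical axis) in steps of 250 bp from the nearest protein-coding start (horizontal axis, upstream negative); green bars are promoter-flanking steps and grey bars the steps inside 500 bp and beyond 2500 bp. The bars are lower farther out on both sides, and from 500 to 750 bp the upstream bar stands at 74.2 and the downstream bar at 156.

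Some regions were the outer parts of peaks that also covered sequence near the start, since a shared region is only the overlap of the peaks of both replicates. A deposited peak of either replicate came within 500 bp of the start in 241 upstream regions (13.8%) and in 740 downstream regions (22.2%). Peaks of replicate 2 did so more often, in 9.36% of upstream and 15.4% of downstream regions, against 4.39% and 6.77% for replicate 1. Without these regions 4109 remained, and the upstream to downstream ratio was 0.620. Regions just inside the inner limit resembled those just outside it. From 500 to 600 bp median heights were 1.37 and 1.25 upstream and 0.797 and 1.00 downstream, against 1.26 and 1.28 upstream and 0.813 and 1.04 downstream from 400 to 500 bp. Around the outer limit, regions from 2400 to 2500 bp had 1.74 and 0.990 upstream and 1.18 and 1.01 downstream, against 1.87 and 1.10 upstream and 1.26 and 1.13 downstream from 2500 to 2600 bp.

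Upstream regions were higher than downstream regions in both replicates, and both sides were lower than start-site peaks. The median height upstream was 1.58 in replicate 1 (quartiles 0.818 and 2.93) and 1.16 in replicate 2 (0.804 and 1.75). Downstream it was 0.893 (0.599 and 1.59) and 1.01 (0.764 and 1.40). Start-site peaks had medians of 2.66 and 1.96 and distal peaks 1.28 and 0.871. The quartile ranges of the classes overlapped. These medians depend on the need for a peak in both replicates. With the peaks of replicate 1 alone its medians were 0.738 upstream and 0.642 downstream. Upstream stood above downstream in all 10 alternatives that gave a value, in each replicate. In a tissue of many cell types a low height from fewer open cells and one from less cutting per cell cannot be told apart.

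**Figure D2:**
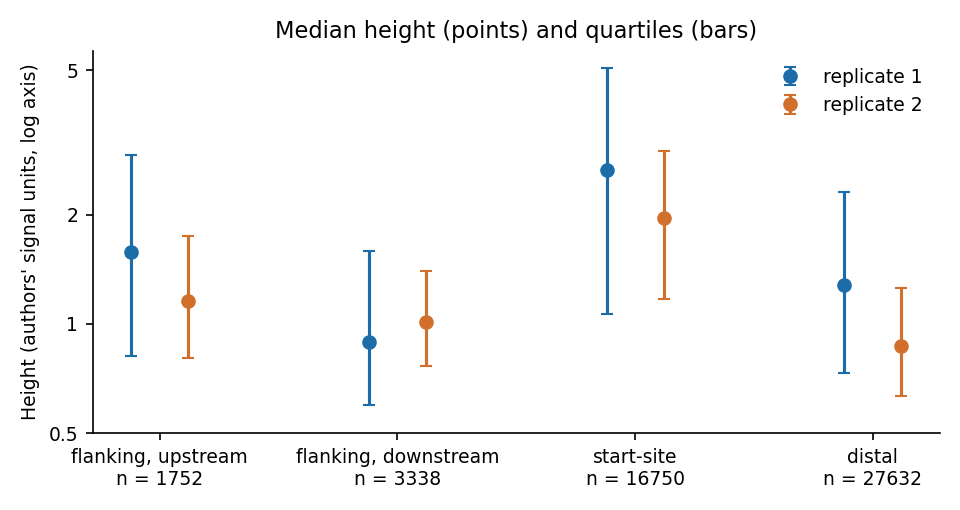
Median height (points) with quartiles (bars) in the authors' signal units on a log axis, for flanking regions upstream and downstream, start-site peaks and distal peaks in replicates 1 and 2. Upstream medians are 1.58 and 1.16 and downstream medians 0.893 and 1.01, all under the start-site medians of 2.66 and 1.96.

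The replicates differed in which flanking regions were high. The median log2 ratio of height in replicate 2 over replicate 1 was -0.46 upstream and 0.11 downstream, against -0.46 at start-site peaks, -0.55 at distal peaks and -0.48 over all shared peaks. It changed with distance. Upstream it was -0.22 from 500 to 750 bp and -0.80 from 2250 to 2500 bp, and downstream it was 0.29 from 500 to 750 bp and -0.27 from 2250 to 2500 bp. In replicate 1 the median height increased outward over the same steps, 1.39 and 2.01 upstream and 0.783 and 1.29 downstream, while in replicate 2 the medians were 1.25 and 1.12 upstream and 0.990 and 1.04 downstream. The ratio was also larger where the sequence was CpG-rich, at 0.24 against -0.01 elsewhere downstream and at -0.32 against -0.53 elsewhere upstream, and where a peak reached the start, at 0.39 against 0.00 downstream and at 0.03 against -0.54 upstream. At start-site peaks the order by CpG content was the other way, -0.52 in CpG-rich sequence against -0.21 elsewhere. The 2 libraries also differed in depth: the deposited heights moved in steps of 0.00535 in replicate 1 and 0.0108 in replicate 2, which would correspond to 187 and 93.0 M reads or cuts if 1 step is 1 read in a value scaled per M reads, and the peak lists held 132685 and 59880 peaks. The part of depth in these ratios was not tested. The downstream median of replicate 2 exceeded that of replicate 1 in 5 of 9 alternatives and not with equal list lengths (1.35 in replicate 1 and 1.24 in replicate 2), 50% reciprocal overlap, starts of every gene type or regions over 1000 bp away.

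**Figure D3:**
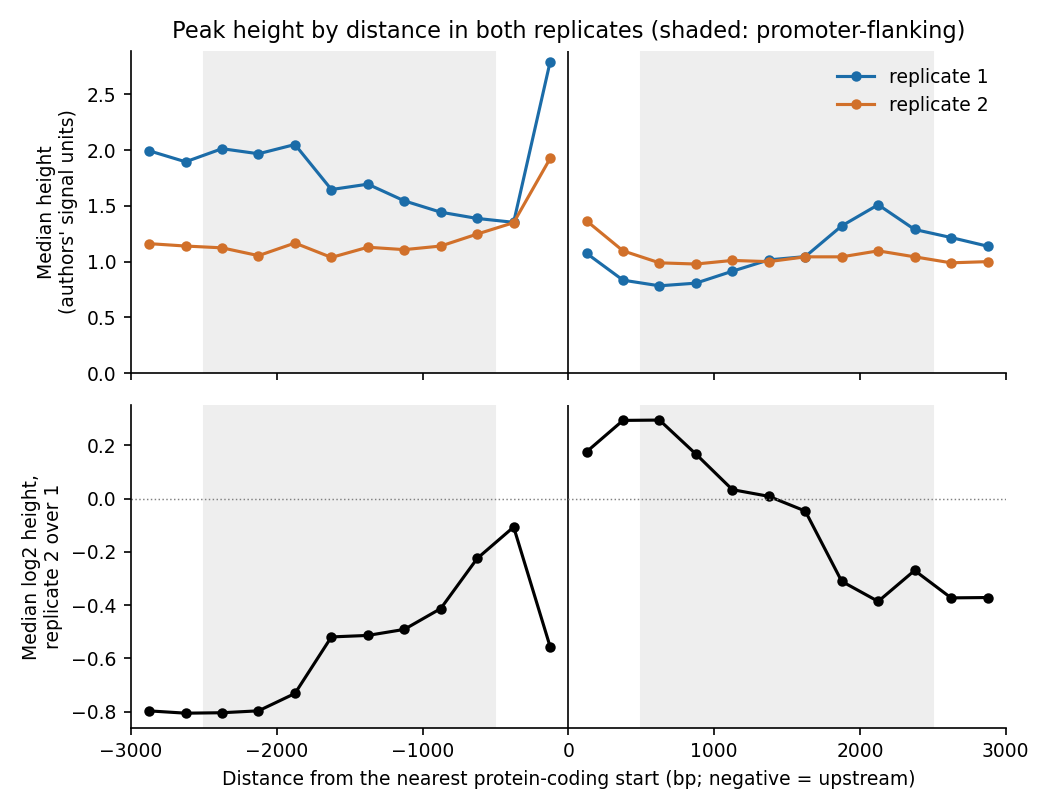
Median height in the authors' signal units (top, replicates 1 and 2) and median log2 ratio of replicate 2 over replicate 1 (bottom) in steps of 250 bp from the nearest protein-coding start, upstream negative, with the flanking windows shaded. The ratio is 0.29 from 500 to 750 bp downstream and -0.22 from 500 to 750 bp upstream, and is lower farther out, at -0.27 downstream and -0.80 upstream from 2250 to 2500 bp.

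Across regions, log10 heights of the replicates correlated with a Pearson r of 0.777 upstream (n = 1752) and 0.712 downstream (n = 3338), against 0.875 at start-site peaks and 0.768 at distal peaks. The points of each replicate share a library and its depth. In the shorter, stricter peak list of both replicates stood 51.1% of upstream regions (48.8 to 53.5), 39.2% of downstream regions (37.6 to 40.9) and 43.3% of all flanking regions, against 78.2% of start-site peaks, 42.2% of distal peaks and 54.5% of all shared peaks.

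Footprints, short protected stretches that the authors called inside open chromatin, were found less often in downstream regions than in the other classes. A footprint in both replicates overlapped 61.5% of upstream regions (59.2 to 63.8) and 44.8% of downstream regions (43.2 to 46.6), together 50.6%, against 70.7% of start-site peaks, 62.1% of distal peaks and 63.8% of all shared peaks. Higher regions were footprinted more often, so regions were also compared within 4 groups of equal size by height rank over all shared peaks. In the lowest group the share was 23.0% upstream and 20.5% downstream, against 22.9% at start sites and 30.2% at distal peaks. In the next group it was 46.0% upstream and 40.5% downstream, against 39.2% at start sites and 61.0% at distal peaks. In the group below the top it was 76.8% upstream (73.0 to 80.2) and 64.8% downstream (61.3 to 68.1), against 65.99% at start sites (64.4 to 67.5) and 86.96% at distal peaks. In the highest group it was 94.1% upstream and 93.4% downstream, against 93.5% at start sites and 97.9% at distal peaks. In each of the 4 groups both sides lay below distal peaks. Upstream regions lay above start-site peaks in the middle groups, while downstream regions lay within 3 percentage points of start-site peaks in all 4. Only 9.47% of downstream regions were in the highest group, against 22.4% of upstream regions and 50.2% of start-site peaks.

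Base composition lay between start-site and distal peaks, and downstream regions were richer in CpG. A region was called CpG-rich where the 200 bp around its middle had a GC content of at least 50% and an observed over expected CpG ratio of at least 0.6. This held for 31.4% of upstream regions (29.2 to 33.6) and 42.2% of downstream regions (40.5 to 43.9), together 38.5%, against 79.5% of start-site peaks, 8.79% of distal peaks and 35.8% of all shared peaks. The share was lower farther out. Upstream it was 46.2% from 500 to 750 bp and 17.2% from 2250 to 2500 bp, and downstream it was 55.2% and 18.6% over the same steps. CpG-rich upstream regions were higher than the rest, with medians of 1.91 and 1.64 against 1.47 and 1.02. Downstream, CpG-rich regions had 0.904 and 1.15 against 0.877 and 0.936, a difference seen mainly in replicate 2.

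Most flanking regions lay beside genes that also had an open start, meaning a shared peak within 500 bp of one of their protein-coding starts. This was so for 81.1% of upstream regions and 87.6% of downstream regions, together 85.4% (84.4 to 86.3). Counted by gene, 2834 of the 3453 genes with a flanking region had an open start. Over all 20698 autosomal protein-coding genes 58.2% had one. The nearest start itself was open for 67.8% of upstream and 80.0% of downstream regions. Where it was open, the flanking region was higher than the start-site peak in both replicates at 19.9% of upstream regions (236 of 1188). Downstream this held for 8.09% (216 of 2671). Where 1 deposited peak covered both regions, the flanking region could not be higher in that replicate. A deposited peak of either replicate came within 500 bp of the start in 13.8% of upstream and 22.2% of downstream regions. Its part in the difference between sides was not tested. The 332 upstream regions of genes without an open start had medians of 2.18 and 1.14, against 1.51 and 1.17 for those of genes with one. Downstream the 413 regions of genes without an open start had 1.39 and 1.05, against 0.850 and 1.00. These regions were higher in replicate 1 and close to the others in replicate 2, and a footprint in both replicates was found in 72.9% of them upstream and 60.8% downstream, against 58.9% and 42.6% where the start was open.

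Downstream regions lay mainly in the first intron. Their middle was in the first intron of their own gene in 67.9%, in a coding exon in 17.3%, in another intron in 7.52%, in a UTR exon in 5.66% and past the end of the gene in 1.71%. Coding exon regions were the most CpG-rich (71.4%, with median heights of 0.775 and 1.10), and first-intron regions were CpG-rich in 35.5% (0.861 and 0.968). Upstream regions lay outside their own gene in 77.2% and otherwise inside it, upstream of an inner start. A start of a noncoding RNA gene or of a noncoding transcript of a coding gene lay within 500 bp of 14.9% of upstream and 19.7% of downstream regions, so these flank a coding start while lying at a start of another kind. With starts of every gene type the ratio of upstream to downstream was 0.686.

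Exact matches to 15 motif sequences were counted on both strands in the 200 bp around the middle of each region. A match is a description of the letters, not a bound site. The CTCF motif was the one that separated the sides most plainly. It was found in 108 upstream regions, 6.16% (5.08 to 7.39), and in 72 downstream regions, 2.16% (1.69 to 2.71), against 0.740% of start-site peaks, 8.67% of distal peaks and 5.46% of all shared peaks. Among sequence that was not CpG-rich the shares were 7.99% upstream and 3.37% downstream, against 1.63% at start sites and 9.09% at distal peaks. The 4 sequences below are the highest flanking regions with this motif, and only its match stands in capitals. The Slc17a7 sequence also holds the bHLH E-box CCATCTG outside that match, left in lower case. Med13 and Slc17a7 are upstream and Nuak1 and Dram1 downstream.
Med13 (chr11:86358281-86358480): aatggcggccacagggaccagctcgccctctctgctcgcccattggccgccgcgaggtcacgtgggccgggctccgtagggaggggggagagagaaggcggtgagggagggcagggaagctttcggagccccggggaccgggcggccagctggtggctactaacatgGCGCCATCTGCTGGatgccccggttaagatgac
Slc17a7 (chr7:45162221-45162420): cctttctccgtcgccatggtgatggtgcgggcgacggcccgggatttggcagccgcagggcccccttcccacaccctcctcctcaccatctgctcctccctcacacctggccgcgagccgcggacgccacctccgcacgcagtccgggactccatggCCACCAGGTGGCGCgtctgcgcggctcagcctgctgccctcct
Nuak1 (chr10:84438141-84438300): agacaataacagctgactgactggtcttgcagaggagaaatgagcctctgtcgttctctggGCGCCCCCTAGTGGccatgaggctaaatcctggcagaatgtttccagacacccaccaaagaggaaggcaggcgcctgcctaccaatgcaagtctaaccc
Dram1 (chr10:88376861-88377060): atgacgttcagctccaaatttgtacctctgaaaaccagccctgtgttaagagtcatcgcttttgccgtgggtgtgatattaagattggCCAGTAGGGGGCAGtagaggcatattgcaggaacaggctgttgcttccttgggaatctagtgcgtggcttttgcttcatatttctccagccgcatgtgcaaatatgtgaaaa

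Regions with the CTCF motif were high in replicate 1 and were nearly all footprinted. Their median heights were 2.91 and 1.34 upstream and 2.98 and 1.33 downstream, against 1.49 and 1.14 upstream and 0.877 and 1.00 downstream for regions without it. A footprint in both replicates was present in 90.6% of the 180 regions (85.3 to 94.4), against 49.1% of the other 4910. Higher regions were footprinted more often, and this comparison was not made at like height. The motif itself was overlapped by a footprint in 98.3% of regions in replicate 1 and 83.3% in replicate 2, against 99.2% and 81.6% over all shared peaks that hold it. The region near Med13, a subunit of the Mediator kinase module, had heights of 9.26 and 4.64 at 659 bp, against 0.941 and 0.785 at its start. The region near Slc17a7, the gene of the vesicular glutamate transporter VGLUT1 of excitatory neurons, had 7.17 and 4.77 at 1509 bp, and no start of that gene had a shared peak. Nuak1 had 3.27 and 1.90 at its start, against the 9.91 and 4.08 inside the gene. The region in Dram1, an autophagy gene, had 8.40 and 3.38 at 2020 bp, against 4.97 and 2.86 at its start.

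Motifs that are common at start sites were less frequent in flanking regions than there. The GC box GGGGCGGGG of SP and KLF factors was found in 5.08% upstream and 4.34% downstream, against 15.8% at start sites, 1.31% at distal peaks and 6.55% of all shared peaks. The CCAAT box CCAATCAG of NFY was found in 1.77% and 0.989%, against 4.04%, 0.941% and 2.02%. The ETS motif CCGGAAGT was found in 0.742% and 0.539%, against 5.50%, 0.431% and 2.16%. NRF1 (GCGCATGCG) had 0.799% and 0.509%, against 2.79%, 0.423% and 1.24%. YY1 (AAGATGGCG) had 0.342% and 0.270%, against 2.30%, 0.290% and 0.97%. BANP (TCGCGAGA) was found in 4 flanking regions in all (0.0786%), against 1.53% at start sites and 0.55% of all shared peaks. Among CpG-rich regions alone the GC box had 11.3% upstream and 6.68% downstream, against 18.1% at start sites, and NFY had 2.55% and 0.710%, against 3.96%. NRF1 there had 1.64% and 1.14%, against 3.34%. In the same regions the ETS motif had 1.82% upstream and 0.710% downstream, against 6.45% at start sites.

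The AP-1, E-box and TATA motifs, more frequent at distal peaks than at start sites, had shares between those of the 2 classes. The AP-1 motif TGANTCA, bound by FOS and JUN dimers, was found in 5.14% upstream and 3.86% downstream, against 2.47% at start sites, 7.90% at distal peaks and 5.69% of all shared peaks. The E-box CCATCTG of neuronal bHLH factors had 7.25% and 6.47%, against 2.69%, 16.7% and 10.9%. The TATA box TATAAA had 3.54% and 2.61%, against 2.22%, 5.27% and 3.99%. Among CpG-rich regions alone this order did not always hold. TATA there had 1.64% upstream and 1.14% downstream, against 1.94% at start sites. AP-1 had 2.55% and 1.70%, against 1.86%, while the E-box had 2.18% and 2.77%, against 1.85%. In sequence that was not CpG-rich the order held, but downstream AP-1 (5.44%, 4.47 to 6.55) overlapped start sites (4.82%, 4.13 to 5.59). The cyclic AMP response element, like the GC box more frequent at start sites than at distal peaks, had 1.08% and 0.779%, against 2.75%, 0.413% and 1.25%. EGR (GCGTGGGCG), also more frequent at start sites, had 0.342% and 0.389%, against 1.02%, 0.232% and 0.513%. For the longer motifs of NFI (0.571% and 0.779%, against 0.667% of all shared peaks), MEF2 (0.342% and 0.300%, against 0.338%) and RFX (0.114% and 0.0599%, against 0.0748%) the intervals of the sides included the share of all shared peaks. A match of one motif can overlap a match of another, as a CTCF match can overlap an E-box.

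**Figure D4:**
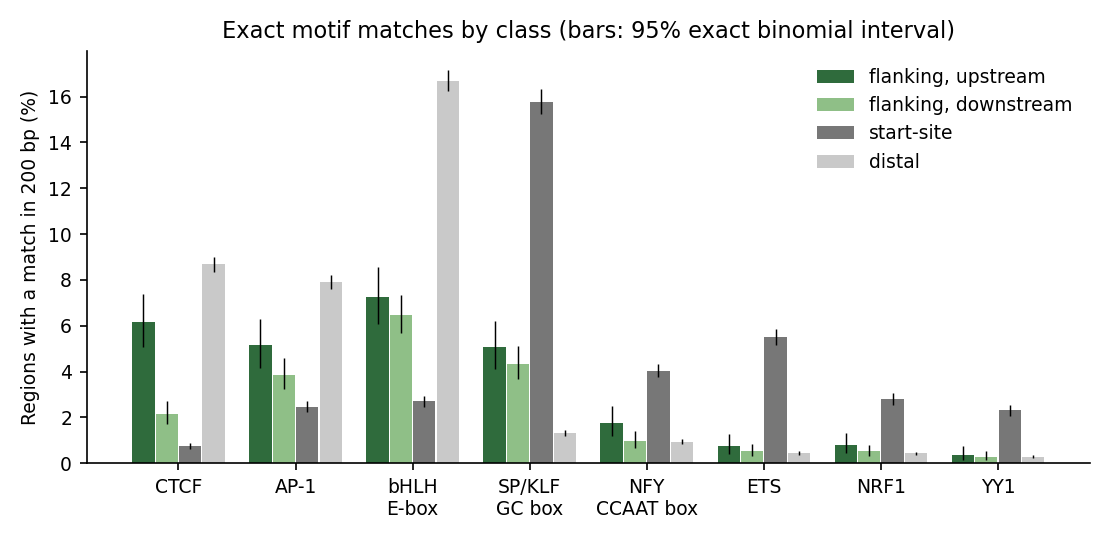
Share of regions (vertical axis, percent) with an exact match to each of 8 motifs in the 200 bp around their middle, for flanking regions upstream and downstream, start-site peaks and distal peaks; thin bars are 95% exact binomial intervals. CTCF stands at 6.16% upstream and 2.16% downstream, between 0.740% at start sites and 8.67% at distal peaks, while the GC box stands at 5.08% and 4.34%, against 15.8% at start sites.

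At least 1 flanking region belonged to 3453 of the 20698 autosomal protein-coding genes, 16.7% (16.2 to 17.2), with 1424 genes on the upstream and 2409 on the downstream side. Most of them, 2436, had exactly 1, and 380 had regions on both sides. Neighbouring regions of a gene may share a deposited peak. The share was 23.5% among genes with an open start and 7.16% among genes without one. Genes with more annotated starts had more chance of one, 14.0% with 1 start, 15.4% with 2 to 3 and 24.1% with 4 or more. The most regions fell to Nfic, a gene of the nuclear factor I family, with 14 on chromosome 10 between positions 81424577 and 81457940, at 6 annotated starts. Their heights ran from 0.299 to 4.42 in replicate 1 and from 0.301 to 1.93 in replicate 2. Auts2 had 9 (7 starts), the forkhead gene Foxo3 8 (5 starts) with a highest region of 8.42 and 3.75, and the protocadherin gene Pcdh10 8 (4 starts). Ppp2r3d, Jade2, the microtubule-associated protein gene Map4 and 2900026A02Rik had 7 each, and all 7 of Map4 were downstream and all 7 of 2900026A02Rik upstream.

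Genes that neurons switch on within minutes of activity carried flanking regions most often among the 13 gene lists examined. Of 18 immediate-early genes 14 (77.8%) had at least 1, against 16.7% of all genes. All 18 had an open start, and among all genes with an open start the share was 23.5%. The list held 34 regions with median heights of 1.49 and 1.36, against 1.05 and 1.05 over all flanking regions. Arc, Egr2, Homer1 and Nr4a1 had none. Jun had 5 and Egr3 and Nr4a3 4 each. The highest were those of Junb and Fosb, which encode partners in the AP-1 dimer, and their sequences follow, with a CCAAT box on the minus strand and a GC box in capitals in Fosb and no match in Junb.
Junb (chr8:84976531-84976730): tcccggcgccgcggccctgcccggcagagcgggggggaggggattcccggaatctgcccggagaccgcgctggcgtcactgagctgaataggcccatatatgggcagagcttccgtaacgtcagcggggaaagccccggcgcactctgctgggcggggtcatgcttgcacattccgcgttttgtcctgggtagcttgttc
Fosb (chr7:19308601-19308800): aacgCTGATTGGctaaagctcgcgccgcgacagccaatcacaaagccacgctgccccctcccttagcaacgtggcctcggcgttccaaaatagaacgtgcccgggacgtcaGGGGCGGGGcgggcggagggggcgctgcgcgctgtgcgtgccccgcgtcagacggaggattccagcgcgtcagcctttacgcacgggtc

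The Junb region lay 1978 bp downstream of the start, past the end of this short gene. It had heights of 7.48 and 4.37, against 4.88 and 4.04 at the start. A noncoding transcript of a coding gene started within 500 bp of it. The Fosb region lay in the first intron at 780 bp with 6.01 and 3.38. Upstream, Ier2 had 6.59 and 2.41 at 1109 bp, against 3.96 and 2.12 at its start, and Nr4a3 had 5.86 and 2.83 at 1573 bp, against 4.33 and 2.08. Jun, with 4.33 and 3.08 at its highest region, lay below the 11.4 and 4.27 of its start. Fos had a low region on each side, 0.861 and 1.18 upstream and 1.36 and 0.957 downstream. The regions of Ier2, Nr4a3, Jun and Fos were picked with their values known. Of the 32 regions of this list whose start had a peak, 4 exceeded it in both replicates (12.5%), near the 11.7% (452 of 3859) of all flanking regions with such a peak.

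Pan-neuronal genes and glutamate receptor genes came next. Of 14 pan-neuronal genes 10 (71.4%) had a flanking region, 9 of them downstream, with 20 regions at medians of 1.10 and 1.13. The highest were in the neurofilament genes Nefm (2.86 and 1.89 at 1066 bp) and Nefh (2.33 and 2.18 at 684 bp, against 0.535 and 0.925 at its start). Of 19 genes for glutamate receptors and their scaffolds 12 (63.2%) had one, at medians of 1.11 and 1.15, led by the scaffold genes Dlg4, which encodes PSD-95 (7.19 and 3.36), and Shank3 (2.74 and 1.82 at 703 bp, against 1.96 and 1.42 at its start). Of 15 excitatory neuron genes 6 had one (40%). The highest reported here was that of Slc17a7, described above. Of 16 interneuron genes only Gad1, which makes GABA, had one (2.87 and 1.46 at 722 bp), and 6 of the 16 had an open start.

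The remaining lists had shares from 47.1% to 6.67%, on both sides of the 16.7% of all genes. Differences between lists of this size were not tested. Of 17 genes for chromatin and CpG-binding proteins 8 (47.1%) had a flanking region, among them the methyltransferase gene Kmt2d (4.49 and 4.00 at 897 bp) and the methylcytosine oxidase gene Tet3 (2.47 and 1.40 at 855 bp). Of 15 housekeeping genes 6 (40%) had one, led by the chaperone gene Hsp90ab1 (6.29 and 3.61 at 530 bp) and the elongation factor gene Eef2 (3.72 and 1.94 at 1351 bp). Of 14 astrocyte genes 5 (35.7%) had one, among them Atp1b2 (1.95 and 1.01) and Gfap, whose region upstream at 1338 bp had 0.952 and 1.06 without an open start. Of 15 oligodendrocyte and precursor genes 3 (20%) had one, among them Cnp (1.03 and 0.764) and Vcan (0.524 and 0.914). Of 16 microglial genes 3 (18.8%) had one, among them Mertk (2.69 and 1.15) and C1qc (1.71 and 1.00). Of 16 vascular genes Mfsd2a (1.28 and 1.10) and Tagln (1.01 and 0.839) had one (12.5%). Of genes of other tissues, the apolipoprotein genes Apoa1 (3.29 and 1.47) and Apob (2.80 and 1.48) of 15 liver genes (13.3%) had one, and Myh7 (1.14 and 1.02) of 15 muscle genes (6.67%), with no open start in either list. The lists differ in the share of genes with an open start and in the number of starts per gene, and the part of these in the counts was not tested.

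**Figure D5:**
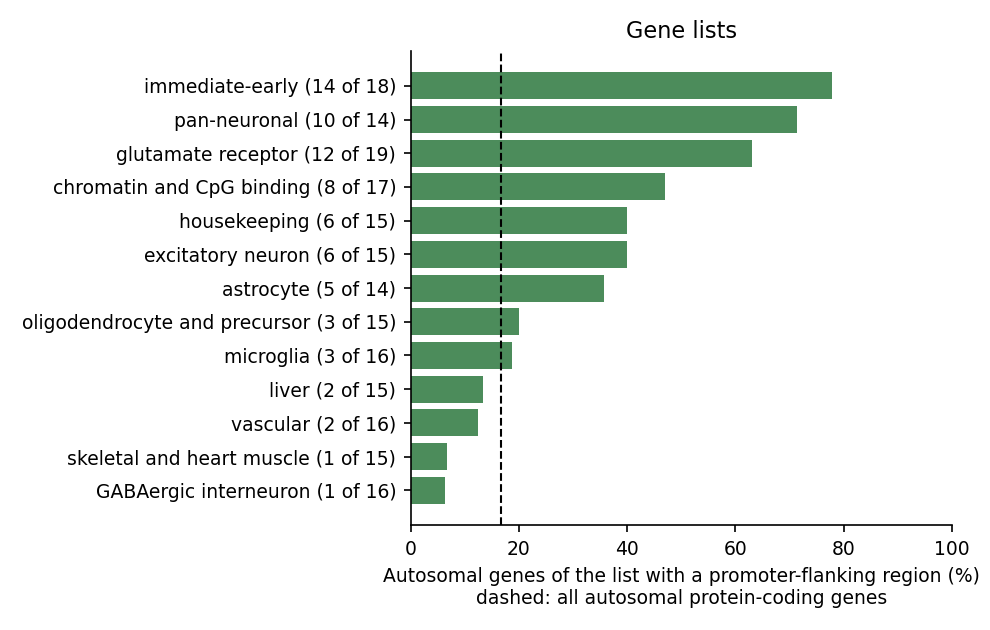
Share of the autosomal genes of each of 13 lists with at least 1 promoter-flanking region (horizontal axis, percent), with the number of genes beside each name; the dashed line is the 16.7% of all autosomal protein-coding genes. Immediate-early genes stand highest with 14 of 18 and interneuron genes lowest with 1 of 16.

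The tissue label was checked against open starts of marker genes, beside the 58.2% of all autosomal protein-coding genes with an open start. Excitatory neuron markers were open in 5 of 6 genes, dentate granule cell markers in 3 of 4, CA pyramidal cell markers in 3 of 5, astrocyte markers in 3 of 5, oligodendrocyte markers in 2 of 4, precursor markers in 2 of 3, interneuron markers in 1 of 5 and ependymal or choroid plexus markers in 1 of 3. None of 4 microglial, 4 vascular and 3 liver markers was open. Ttr, without an open start, was counted both among the liver markers and among the ependymal or choroid plexus markers. Lists of so few genes near that share say little about the label. A start open only in a scarce cell type may give no shared peak.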

How the data were processed

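DNase-seq peak lists and footprints, 1 set per sample, were the deposited files, and their assembly is mm10 per the labels. Which aligner and peak caller were used, and with what settings, was not given in the sources used here. Peak heights are the signal values that the authors deposited with each peak. Footprints carried a constant 0.01 in the p-value column of the files the authors deposited, so only their positions were used. Of each sample's peak lists the longer one was used. Overlaps of at least 1 bp between replicates were shared peaks, with the height of the overlapping peak in each replicate. A single deposited peak could thus give several regions. Sequence and repeat masking came from the RefSeq copy of GRCm38. Because the mice are hybrids, reads of both parental genomes were placed on 1 reference. Computation used Python 3.11.15, numpy 2.4.6, pandas 2.3.3, scipy 1.17.1 and matplotlib 3.10.9, and the counting steps were tested on simulated data. Intervals are Clopper-Pearson. Named genes were the 10 highest regions per side, the 8 genes with most regions and the 2 highest genes of each list, besides those said to be picked later; 1 of them is not reported here. The members and lists were chosen with earlier results of these data known. The alternatives tried are named with their effects.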

Additional observations from a re-analysis of the deposited data

How the results depend on the processing

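No paired analysis was possible because the series holds 1 group. Upstream regions stayed higher and sparser than downstream ones in every alternative that gave both values, while counts and shares moved. With the stricter peak list there were 2385 regions, 8.69% of shared peaks, 39.0% of them upstream, at a density ratio of 0.681, with medians of 2.44 and 1.59 upstream and 1.35 and 1.36 downstream, 77.0% at genes with an open start, 60.3% footprinted in both replicates and 8.92% of genes reached. With 50% reciprocal overlap there were 2688, 8.57%, 40.5%, 0.725, 2.09 (replicate 1 upstream), 1.17 and 1.10 downstream, 64.0%, 70.0% and 10.9%, with 55.2% in the stricter list. With lists of equal length the shares were 8.91%, 40.0% upstream, 79.4% open, 64.6% footprinted, 12.7% of genes and 57.5% in the stricter list, the ratio 0.711 and the medians 2.09 (replicate 1 upstream) and 1.35 and 1.24 downstream. Over 1000 bp there were 2409 regions, 4.87% of shared peaks, 38.1% upstream, ratio 0.660, a downstream median of 1.10 in replicate 1, 80.7% open, 58.8% footprinted and 8.85% of genes. With starts of every gene type the values were 13.2%, 39.6% upstream, 0.686, 1.02 downstream in replicate 1, 69.5% open, 56.2% footprinted and 9.46% of genes. Distance from the middle gave 11.8% of shared peaks, 87.5% open, 18.7% of genes and 45.8% in the stricter list. Basic starts gave 33.0% upstream and 49.1% footprinted. A 400 bp window gave 26.9% CpG-rich upstream and moved 13 motif shares, all to higher values, while 17 did not move. With it TATA had 10.8% upstream and 6.65% downstream, AP-1 11.4% and 7.31%, the GC box 8.05% and 8.12%, the E-box 11.3% and 10.6% and CTCF 6.34% and 2.16%. Likewise EGR (0.799%), ETS (1.31%) and MEF2 (0.856%) moved upstream, and NFY (1.65%) and MEF2 (0.569%) downstream, and footprints wholly inside gave 48.2%. Among 2 alternatives that were chosen after seeing the data, leaving out regions whose peak reached the start gave 8.47% of shared peaks, 36.8% upstream, 0.620, 83.1% open, 55.2% footprinted and 14.1% of genes. Leaving out recurring sequences, the other one, moved none of these values by more than its interval or spread.

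Using the peaks of 1 replicate alone changed most values. Without replicate 1 or 2 the number was 5620 to 11833, the share of peaks 9.24% to 9.94%, the upstream share 34.8% to 37.7%, the density ratio 0.568 to 0.646, the share of genes 18.3% to 32.5%, open starts 86.5% to 89.0%, footprints in both replicates 23.6% to 44.3% and the stricter list 18.02% to 31.6%. Medians were then 0.738 (replicate 1) and 0.979 (replicate 2) upstream and 0.642 (replicate 1) and 0.839 (replicate 2) downstream. Motif shares aside, 77 recomputed values moved and 53 did not. The cause was not tested. The 2 samples give no interval for a difference between animals.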
